A study of Mus musculus with 2 samples.

Results

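Retinoic acid, the active form of vitamin A, signals through a short chain of proteins, and 9 genes of that chain were followed here in mouse embryonic stem cells (mESCs). They were the receptor genes Rara, Rarb, Rarg and Rxra, the genes of the cellular retinoic acid-binding proteins Crabp1 and Crabp2, the retinol uptake gene Stra6, the synthesis gene Aldh1a2 and the breakdown gene Cyp26a1. They were taken by symbol, all 9 were present, and they are 9 of the 18888 genes in the table. The cells were 46C mESCs, a line that carries a GFP reporter in the neural gene Sox1, at passages 21 to 24, grown on gelatin in conventional mESC medium. PB mESCs hold the empty PiggyBac vector. PB-TERRA mESCs express polyadenylated telomeric repeat-containing RNA (TERRA) from the same vector. Each condition was sequenced as 1 library, so no difference below has a replicate check, and every comparison is between 2 libraries. Whether each culture came from a pool or a single clone is not given in the sources used here.

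Retinol enters the cell from its carrier protein in the blood and is oxidised to retinal and then to retinoic acid. Inside the cell the acid is held by CRABP proteins, destroyed by CYP26 enzymes, or carried to retinoic acid receptors (RARs), which bind DNA paired with retinoid X receptors (RXRs). Without the acid the pair holds corepressors at its target genes, and with it the pair recruits coactivators. Retinoic acid is widely used to drive mESCs out of self-renewal, and Rarb and Cyp26a1 are textbook targets that respond through an element in the promoter. That element is a direct repeat of a 6-base half-site with 5 bases between the copies (DR5).

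The promoters of these 2 targets are shown because both genes are members and known targets. A half-site was taken as AGGTCA, as GGGTCA or as the forms AGTTCA and GGTTCA. A half-site followed after 5 bases by another was searched on both strands of RefSeq promoters of GRCm38.p6, each of 300 bases. A match was found in 0.0974% of 32851 promoters. Of the 9 genes, 8 have promoters in that collection, 16 promoters in all, and Crabp2 has none there. Matches lay in 2 genes, Rarb and Cyp26a1. The stretches are 30 bases long, both are printed on the - strand, and capitals mark the half-sites.
Rarb: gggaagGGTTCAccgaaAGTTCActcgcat
Cyp26a1: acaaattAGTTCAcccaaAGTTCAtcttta
The Rarb stretch is chr14:16575506-16575535 in GRCm38.p6, and its repeat lies from position -53 to -37 of the RefSeq gene start, on the strand of the gene. In the GENCODE M21 annotation it falls in an exon of 2 Rarb transcripts. The Cyp26a1 stretch is chr19:37697770-37697799, and its repeat lies from -32 to -16, on the strand opposite to the gene and outside every annotated gene body. The repeats of the 2 genes are identical at 15 of 17 bases. With 1 or 2 bases between the half-sites (DR1 and DR2), words found in 0.222% and 0.268% of promoters, no match lay in the 16 promoters.

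Levels are FPKM, fragments scaled to the length of the gene and to the mapped reads of the library, so levels of different genes can be compared. The table gives no read numbers. Low FPKM values fall on steps of 1 read, and these steps gave a depth for each library, from which the reads of each gene were estimated. Summed over genes they came to 24813241 for PB and 24924087 for PB-TERRA. Intervals are 95% intervals of these reads, and they cover counting error only. At 1 FPKM or more in either library were 5 of the 9 genes, a filter passed by 12263 genes in all. Pou5f1, the defining mESC factor, stood at 744.67 FPKM (PB) and 773.31 (PB-TERRA), and all 10 listed markers of undifferentiated cells passed the filter. They summed to 3025.70 and 2931.36 FPKM, with 5 above 0 and 3 below, where 27.0% and 21.5% of all genes that reached 1000 reads in both libraries were. Above were Pou5f1, Sox2, Esrrb, Tfcp2l1 (27.02 and 34.08 FPKM) and Tbx3 (16.76 and 26.10), and below were Nanog, Utf1 and Dppa5a. The difference of Dppa5a (1162.50 and 1039.92 FPKM) was larger than that of the sum.

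Levels differed widely among the receptor genes. The FPKM of Rarg (NCBI Gene 19411) was 108.20 for PB and 132.71 for PB-TERRA, a level above that of 96.1% of all genes in PB. Rara (19401) followed with 20.33 and 22.13 FPKM, and Rarb (218772) had 0.10 and 0.26. Rarg thus made up 84.1% of the summed RAR FPKM in PB and 85.6% in PB-TERRA, while Rarb made up 0.0777% and 0.168%. Rxra (20181) had 8.16 and 8.54 FPKM. It was not the main RXR gene of these cells, since Rxrb had 21.36 and 23.12 FPKM and 68.6% of the summed RXR FPKM in PB. The binding proteins lay between Rara and Rxra in both libraries, with 17.82 and 13.69 FPKM for Crabp2 (12904) and 13.65 and 15.03 for Crabp1 (12903). Of the 9 genes, those for uptake, synthesis and breakdown were under 1 FPKM. Stra6 (20897), a membrane receptor for retinol-binding protein, had 0.65 and 0.59 FPKM, and Aldh1a2 (19378), which makes retinoic acid from retinal, had 0.51 and 0.37. Cyp26a1 (13082), the enzyme that breaks retinoic acid down, had 0.41 and 0.39 FPKM.

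**Figure D1:**
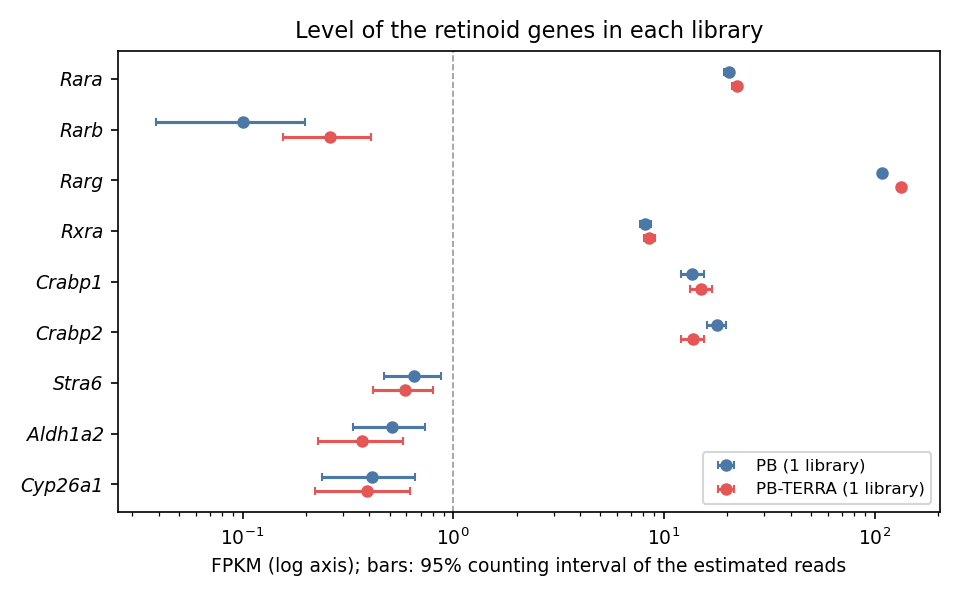
FPKM of the 9 retinoid genes in the PB and PB-TERRA libraries on a log axis, with 95% counting intervals of the estimated reads as bars and a dashed line at 1 FPKM. Rarg stands highest at 108.20 and 132.71 FPKM, and Stra6, Aldh1a2, Cyp26a1 and Rarb lie left of the line in both libraries.

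In PB the order of levels was Rarg, Rara, Crabp2, Crabp1, Rxra, Stra6, Aldh1a2, Cyp26a1 and Rarb. The intervals of neighbours overlapped for Rara with Crabp2, Stra6 with Aldh1a2 and Aldh1a2 with Cyp26a1. Overlap of separate intervals is not a test of a difference, and the order within these pairs was not tested. In PB-TERRA, Crabp1 stood before Crabp2 and Cyp26a1 before Aldh1a2, and the intervals of both of these pairs overlapped there. Rarb was the lowest of the 9 in both libraries, and in PB-TERRA its interval reached that of Aldh1a2.

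**Figure D2:**
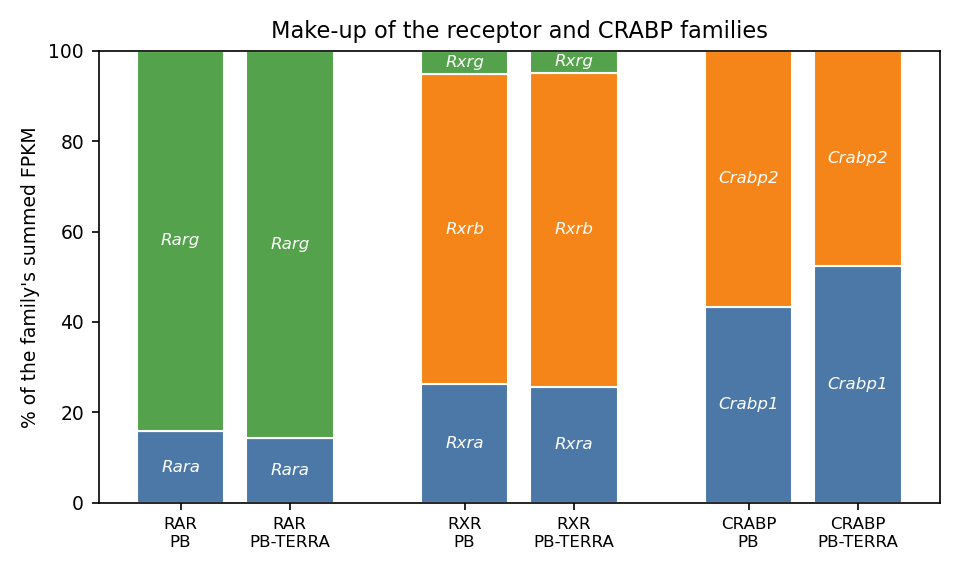
Share of the summed FPKM of each family, in percent, for the RAR, RXR and CRABP genes in the 2 libraries. Rarg fills 84.1% and 85.6% of the RAR bars, the Rarb share is too small to see, and the Crabp1 share is 43.4% in PB and 52.3% in PB-TERRA.

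The question of the experiment is which genes differ when mESCs express polyadenylated TERRA. Among the retinoid genes the difference of PB-TERRA from PB was 22.7% for Rarg and -23.1% for Crabp2. The only larger ratio whose interval left out 0 was that of Rarb, from 7 and 19 reads. Differences are given as the log2 of PB-TERRA over PB after 0.1 was added to each FPKM, a scale on which low genes differ less than their reads do. A log2 ratio of 1 or more, up or down, was found for 0 of the 5 genes past the filter and for 0 of all 9, against 0.913% of the genes past the filter. The median log2 ratio of the 5 genes was 0.12, against -0.0044 over the genes past the filter. Of the 5 genes, 4 were higher and 1 was lower in PB-TERRA. Of all 9 genes, 5 were higher and 4 lower, with a median of 0.06. Among the 5 genes past the filter, the interval of the reads lay above 0 for 2 and below 0 for 1. Over all genes past the filter these shares were 18.2% and 17.6%. Without the filter, it lay above 0 for 3 of the 9 genes and below 0 for 1, against 16.0% and 15.4% of genes that reached 10 reads in a library.

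**Figure D3:**
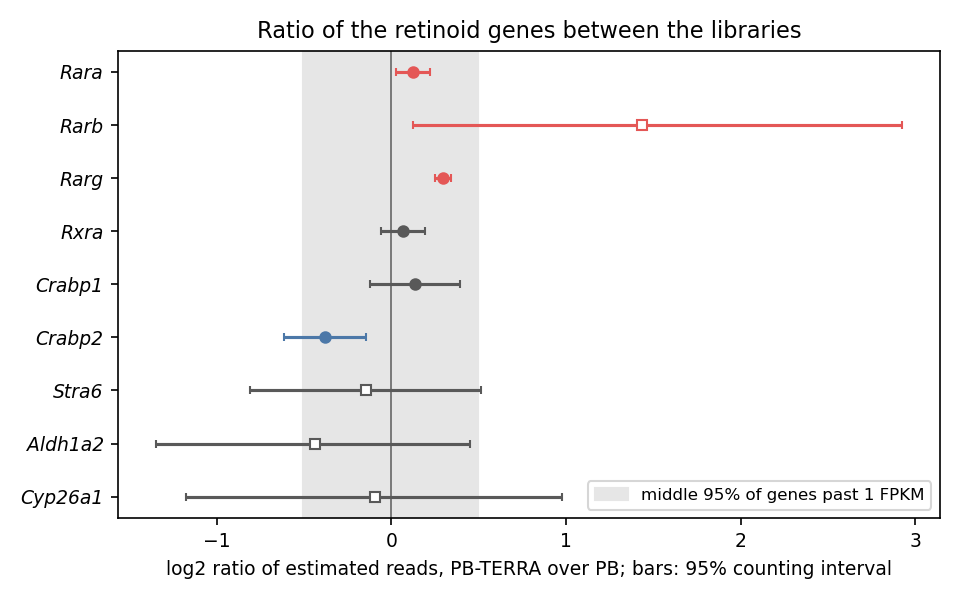
log2 ratio of the estimated reads, PB-TERRA over PB, for the 9 genes with 95% counting intervals. Filled circles are genes past 1 FPKM, open squares the others, red marks intervals above 0 and blue below 0, and the grey band is the middle 95% of genes past the filter, -0.50 to 0.50. Only the Rarb point, at 1.43 with an interval from 0.12 to 2.93, lies outside the band.

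Rarg, the dominant receptor gene, was the most precisely measured. It held an estimated 7162 (PB) and 8827 (PB-TERRA) reads, and its log2 ratio was 0.29 (interval of the reads 0.25 to 0.34). This is a difference of 22.7%. Of the 727 genes with a mean of 64 to 128 FPKM, the middle 95% had log2 ratios from -0.30 to 0.22, and Rarg lay above that range. Of the 5069 genes that reached 1000 reads in both libraries, 1.6% had a higher log2 ratio. Of these same genes, 27.0% had an interval above 0 and 21.5% below, so an interval on 1 side of 0 is common at this depth.

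Rara, from 1581 and 1730 reads, was at 0.12 on the log2 scale (interval 0.02 to 0.22). With a 99% interval, -0.0071 to 0.25, its difference was not detectable. Rxra, the RXR partner in the set, had 1035 and 1088 reads and a log2 ratio of 0.06 (interval -0.06 to 0.19). The 3 abundant receptor genes were thus all higher in PB-TERRA by their FPKM, with the interval above 0 for Rarg and Rara and including 0 for Rxra. The ratio of Rarg to Rara within a library was 5.32 in PB and 5.997 in PB-TERRA. This ratio changed by 0.17 on the log2 scale (exact interval 0.06 to 0.28), and that of Rarg to Rxra by 0.23 (0.10 to 0.36). These are 2 of 4 ratios between genes that were compared. They were chosen after the values were seen, and their intervals are not adjusted for their number.

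Rarb, a receptor that is itself a target of the acid, was read 7 times in PB and 19 times in PB-TERRA. The log2 ratio was 0.85 on the FPKM scale and 1.43 for the reads (interval 0.12 to 2.93). At so low a level the FPKM value depends on the pseudocount, with 0.20 after 1 was added and 1.30 after 0.01. With a 99% interval, -0.23 to 3.42, it included 0. For the 1092 genes with a mean of 0.125 to 0.25 FPKM the middle 95% of log2 ratios ran from -1.62 to 1.35, so the Rarb value on that scale was within the usual spread of genes of its level. Of the annotated exon bases of Rarb in GENCODE M21, 2020 of 5265 also lie in exons of other genes, Top2b and Gm48162. Top2b, a DNA topoisomerase gene, stood at 17.08 FPKM (PB) and 18.67 (PB-TERRA). The library kit named in the labels does not mark strand, so reads of these exons cannot be told apart, and their part in the Rarb value was not tested. Of its 50-base stretches, 34.1% also occur in transcripts of other genes. For Rara it was 0.276%, and the other 7 genes had no shared stretch.

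**Figure D4:**
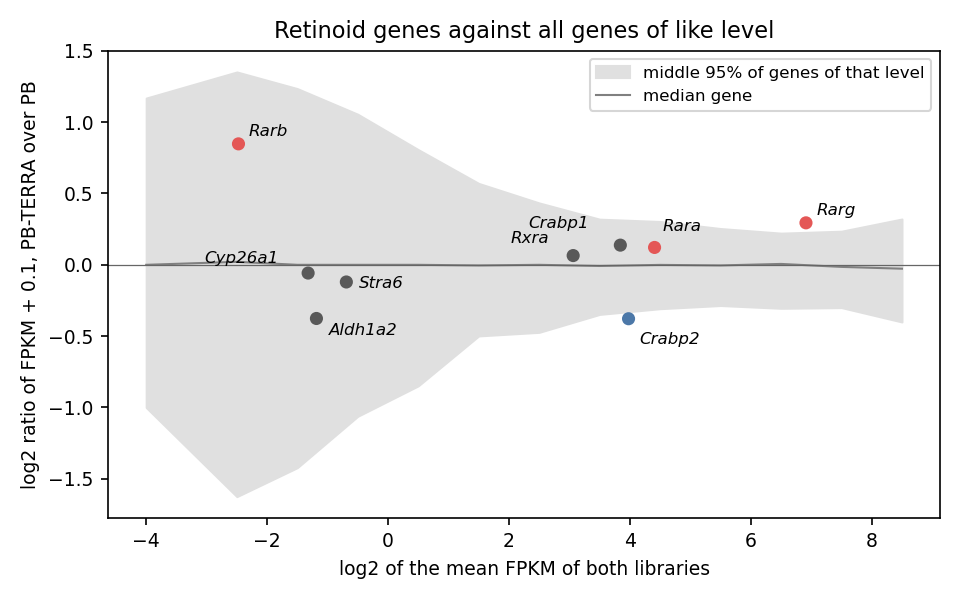
log2 ratio of FPKM + 0.1 against the log2 of the mean FPKM of both libraries for the 9 genes, over the median (line) and middle 95% (grey) of all genes of each level up to 512 FPKM. Red marks an interval above 0 and blue below 0. Rarg at 0.29 and Crabp2 at -0.38 lie just outside the grey range of their levels, and Rarb at 0.85 lies inside it. Points and range are shown without the length trend taken off. With it taken off, Crabp2 is at -0.33, a value not on the scale of this range.

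The binding proteins differed from each other. Crabp2, which is known to deliver retinoic acid to the receptors in the nucleus, was read 347 times in PB and 268 times in PB-TERRA. Its log2 ratio was -0.38 (interval -0.62 to -0.15), a difference of -23.1%. Genes with a mean of 8 to 16 FPKM had log2 ratios from -0.35 to 0.32 in their middle 95%, and Crabp2 lay just below it. Crabp1, which is linked to holding the acid in the cytoplasm, had 239 and 264 reads and a log2 ratio of 0.14 (interval -0.12 to 0.40). The ratio of Crabp2 to Crabp1 FPKM was 1.31 in PB and 0.911 in PB-TERRA, a change of -0.52 on the log2 scale (exact interval -0.87 to -0.16). Both are short genes, of 900 and 819 bases. Short genes were lower in PB-TERRA as a whole, with a median log2 ratio of -0.06 in the decile of the shortest. After subtraction of the median of genes of like length, Crabp2 was at -0.33 (interval of the reads -0.57 to -0.10) and Crabp1 at 0.21 (-0.05 to 0.47). The -0.35 given above comes from ratios without this subtraction, so the 2 values are not on the same scale. The mean level of Crabp2 is also near 16 FPKM, and for genes of 16 to 32 FPKM the lower limit was -0.31.

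For uptake, synthesis and breakdown no difference was detectable at this depth. Stra6 was read 43 and 39 times, a ratio of -0.15 on the log2 scale of the reads (interval -0.81 to 0.51). Aldh1a2 had 27 and 20 reads (-0.44, interval -1.35 to 0.45). Cyp26a1 had 17 and 16 reads (-0.09, interval -1.18 to 0.98), so any fold from 0.443 to 1.97 lies within its interval. The 2 DR5 genes were compared as the last of the 4 ratios. Rarb over Cyp26a1 was 0.244 in PB and 0.667 in PB-TERRA, by FPKM, and its change estimated from the reads, 1.501 on the log2 scale, had an exact interval of -0.23 to 3.36.

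The other genes of the pathway were taken from fixed lists, and 74 of the 79 listed symbols were in the table. Of the 41 past the filter, the interval lay above 0 for 15 and below 0 for 5, with a median log2 ratio of 0.04. The shares over all genes past the filter were 18.2% and 17.6%. Where both libraries reached 1000 reads they were 27.0% and 21.5%. With the length trend taken off, the counts of 15 and 5 became 14 and 7. Of the 15 above 0, 11 were corepressors and coactivators, which are described below, and so was 1 of the 5 below 0. Among the receptors, Rxrb had a log2 ratio of 0.11 (interval 0.0027 to 0.23), which included 0 when both libraries were scaled to the same upper quartile. Rxrg, the third RXR gene, had 1.60 and 1.63 FPKM (log2 ratio 0.03). Of 5 further binding and transport genes, 0 had an interval above 0 and 1 below it. This was Lrp2, a large endocytic receptor for retinol-binding protein and other ligands, with 15.55 and 14.10 FPKM (-0.14, interval -0.19 to -0.09). Fabp5, a fatty acid-binding protein that can also carry retinoic acid, was the most abundant by mean FPKM with 16.52 and 15.34 (-0.11, interval -0.33 to 0.12). Rbp7, a retinol-binding protein gene, was the highest of this list at 0.81, from 16 and 29 reads, and its interval included 0.

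Other enzymes store retinol or turn retinal back into it. Of 7 such genes past the filter, 2 had an interval below 0 and 0 above it, and their median log2 ratio was -0.17. With 17.6% of all genes past the filter below 0, a count of 2 is close to the background. Rdh11, a retinal reductase and the most abundant of them, stood at 27.84 and 22.31 FPKM (-0.32, interval -0.45 to -0.18). Dhrs3, which reduces retinal to retinol and is known to be induced by retinoic acid, had 2.06 and 1.22 FPKM from 67 and 40 reads (-0.71, interval -1.35 to -0.16). Dgat1, which can esterify retinol, was the highest of the list at 0.04 (interval -0.16 to 0.25). For synthesis, 1 of 10 further genes passed the filter. It was Rdh10, which oxidises retinol to retinal, with 7.40 and 6.84 FPKM (-0.11, interval -0.32 to 0.10). Of the genes for breakdown, Cyp26b1 had 5 and 13 reads, with an interval that included 0.

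**Figure D5:**
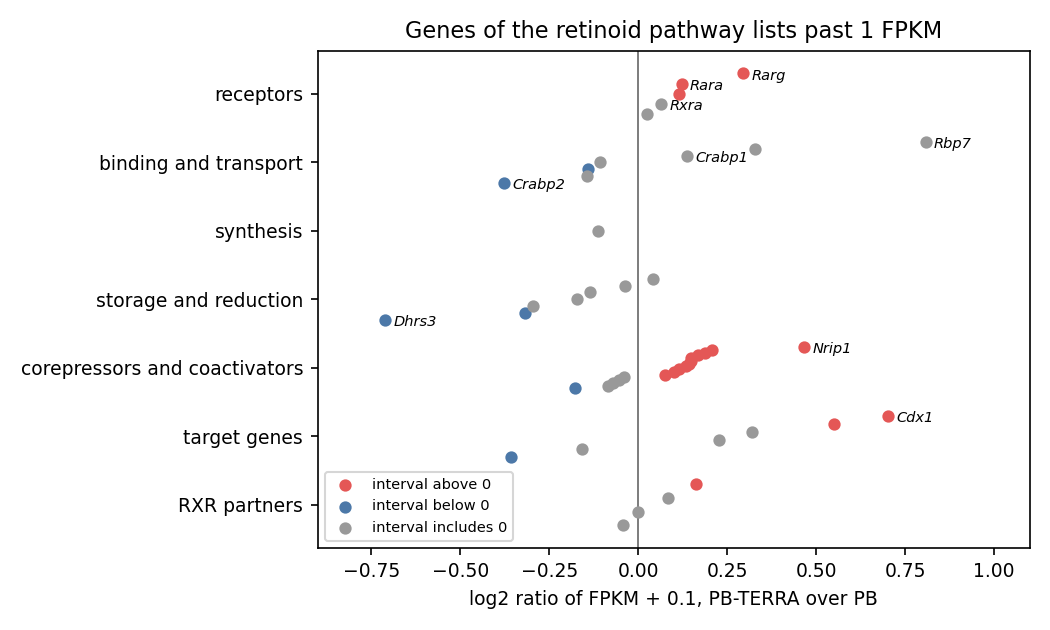
log2 ratio of FPKM + 0.1, PB-TERRA over PB, for the genes of the retinoid pathway lists with at least 1 FPKM in either library, 1 point per gene. Red points have a counting interval above 0, blue below 0 and grey including 0, and 11 of the 16 corepressor and coactivator genes are red.

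The cofactors that receptors recruit were all expressed, and 16 of 16 passed the filter. Of these, 11 had an interval above 0 and 1 below it, and their median log2 ratio was 0.12. Over all genes the shares were 18.2% above and 17.6% below past the filter, and 27.0% and 21.5% where both libraries reached 1000 reads. They are long genes, with a median length of 7278 bases, and long genes were higher in PB-TERRA as a whole, with a median of 0.05 in the decile of the longest. With the length trend taken off, 10 were above and 2 below, and the median was 0.07. Nrip1, a corepressor that binds receptors carrying the acid, was the highest with 2.55 and 3.56 FPKM (0.47, interval 0.26 to 0.71). Carm1, an arginine methyltransferase that acts as a coactivator, was both the most abundant and the lowest in ratio, with 86.59 and 76.53 FPKM (-0.18, interval -0.23 to -0.13). Ncor1, the corepressor named for these receptors, had 44.58 and 50.12 FPKM (0.17, interval 0.13 to 0.21), and was picked from the list after its value was seen.

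Known target genes of retinoic acid were mostly near the limit of detection, with 6 of 17 past the filter. Of these 6, 2 had an interval above 0 and 1 below it. Cdx1, a homeobox gene that responds to retinoic acid and to Wnt, was highest at 0.70 (interval 0.44 to 0.995), from 174 and 287 reads. Tgm2, a transglutaminase gene induced by the acid in many cells, was lower with 5.81 and 4.51 FPKM (-0.36, interval -0.56 to -0.17). Below the filter, Meis1 had 16 and 39 reads (interval 0.41 to 2.22), and it was named after its value was seen. With the length trend taken off, 2 of the 6 were above 0 and 2 below. Of all 17, the interval lay above 0 for 3, below 0 for 1 and included 0 for 13. Of all genes that reached 10 reads in a library, 16.0% lay above 0 and 15.4% below. Some of the 17 did not reach 10 reads, so their counts cannot be set against these shares like for like. By log2 ratio, 14 of the 17 were higher in PB-TERRA, 2 lower and 1 equal. The median was 0.32 over all 17 and 0.27 over those past the filter.

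Markers of other cell types that mESC cultures can hold were also compared between the libraries. All 10 primitive endoderm markers had a higher FPKM in PB-TERRA, summed from 27.19 to 33.21 FPKM, with the interval above 0 for 7, against 16.0% of genes that reached 10 reads. Of these, Gata6 had 1.22 and 2.26 FPKM. With the length trend taken off, 5 instead of 6 of the 8 past the filter were above 0, since Lama1 then included 0. Of 8 fibroblast markers, summed at 19.72 and 23.90 FPKM, 3 had an interval above 0 and 0 below it. These were the collagen genes Col1a1 (7.99 and 12.14 FPKM), Col1a2 (0.92 and 1.37) and Col3a1 (0.21 and 0.47). By log2 ratio, 5 of the 8 were higher in PB-TERRA and 3 lower. The lower ones were Thy1 (9.16 and 8.39 FPKM), the most abundant of the list in PB, Dcn (17 and 16 reads) and Lum (3 and 2 reads). Their intervals included 0. The 8 neural markers summed to 92.34 and 82.40 FPKM, with 2 above and 2 below. Sox1 (1.06 and 1.56 FPKM) and Neurod1 (2.44 and 4.25) were above 0, Nes (27.30 and 20.93) and Tubb3 (57.66 and 51.48) were below, and Dcx was at 0.01 FPKM in both libraries. The 7 mesoderm markers summed to 18.83 and 18.38 FPKM, with 2 above and 1 below, and the 8 trophoblast markers to 291.90 and 294.47, with 1 above and 1 below. Of all genes that reached 10 reads in a library, 16.0% lay above 0 and 15.4% below, though some of the markers did not reach 10 reads. The part of these cell types in the retinoid values was not tested. In such bulk RNA, a different share of cells and a different amount of RNA per cell cannot be told apart.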

How the data were processed

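Total RNA was taken with Trizol from 46C mESCs holding either vector and made into 1 TruSeq library per condition. The authors deposited 1 table with a value per gene and library. The header names no unit. The values were read as FPKM, and the authors' values carry 2 decimals and are never under 0.01. The submitters' processing notes name HISAT, Cufflinks and mm9 without versions, and the annotation is not given in the sources used here. Columns with the authors' fold changes, p-values, adjusted p-values and calls were not used.

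The depth and the bases taken off each gene length (115) were those at which the low values fell closest to whole reads. At these settings 81.3% of 439 low genes in PB and 84.7% of 457 in PB-TERRA lay within 0.2 of a whole read, where 40% would by chance. Estimated reads were rounded, and intervals are exact binomial (ratios of reads), conditional exact (ratios of ratios) or exact Poisson (levels). Computations were tested on simulated data. With 1 library per condition there is no test between conditions. The members and lists were chosen with earlier results of these data known. Named were the 9 genes and, of each other list, the highest and lowest log2 ratio and the highest level past the filter. Of the genes this rule or the lists would name, 2 are not reported here. Top2b, Lrp2, Ncor1, Meis1, Cyp26b1, the markers and the genes with a DR5 match were named after their values were seen. Alternatives were other pseudocounts, filters, scalings, confidence levels and lengths. RefSeq promoters and GENCODE M21 are on GRCm38, not the authors' build, and served for sequences and gene overlaps only. The tools were scipy 1.17.1 and numpy 2.4.6 for intervals, pandas 2.3.3 for tables and matplotlib 3.10.9 for plots, in Python 3.11.15.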

Additional observations from a re-analysis of the deposited data

How the results depend on the processing

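No paired analysis was possible because each condition has 1 library. The log2 ratios of the 9 genes kept their direction where the interval lay on 1 side of 0, under pseudocounts of 0.01 and 1, 3 scalings (the upper quartile moved all genes most, by 0.01), the length trend removed and, added after seeing the data, the ratio of reads. The size for Rarb moved, from 0.20 with a pseudocount of 1 to 1.30 with 0.01. Sizes of other genes whose interval included 0 moved too. With a pseudocount of 1, Aldh1a2 went from -0.38 to -0.14 and Stra6 from -0.12 to -0.05. With the length trend removed, Rxra went from 0.06 to 0.03 and Crabp1 from 0.14 to 0.21. The median of the genes ranged from 0.06 without the filter to 0.13 when centred. Of genes past the filter, 3 had an interval on 1 side of 0. With no filter it was 4, with a 99% interval 2 (Rarg and Crabp2), and with full gene lengths or the length trend removed 3. With no filter and a pseudocount of 0.01 together, also added after seeing the data, 1 gene, Rarb, had a log2 ratio of at least 1, where the main count was 0. Both choices were needed, since Rarb did not pass the filter and had 0.85 with the main pseudocount. Depth limits the 4 genes under 1 FPKM, whose reads ranged from 7 to 43, and the spread between cultures is unknown.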

Other observations

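Receptors that pair with RXR other than the RARs were listed too. Of 13 such genes, 12 were in the table and 4 passed the filter, and the median of their log2 ratios was 0.04. The orphan receptor Nr4a1 stood at 24.22 FPKM (PB) and 27.12 (PB-TERRA), or 0.16 on the log2 scale (interval 0.06 to 0.27), the only 1 of the 4 with an interval on 1 side of 0. Nr1h2, an oxysterol receptor and the most abundant of them, had 38.77 and 38.75 FPKM (interval -0.09 to 0.09), and the thyroid hormone receptor Thra was lowest at -0.04 (interval -0.32 to 0.23).

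A DR5 match was present in promoters of 31 genes in all, and 10 of these were in the table. Besides Rarb and Cyp26a1, 8 were measured and 3 passed the filter. Blvrb, a biliverdin reductase, had 25.54 and 20.79 FPKM (log2 ratio -0.30, interval -0.49 to -0.10). The intervals of Cfap45 (0.51) and Syndig1 (0.13) included 0. These genes were named after their values were seen.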
